A study of Mus musculus with 6 samples.

Results

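The complement system is a cascade of plasma proteins, most of them made by hepatocytes, and the genes of its components, regulators and receptors were followed in the livers of mice on a high-fat diet. The list held 32 genes, taken by gene symbol from the annotation of the array. Of these, 28 had a probe set of their own symbol, among 18193 genes named on the array, and these had 49 of its 45037 probe sets; C3, C4b, C7 and Cfd were not analysed here. Livers of 3 wild-type mice (WT) and of 3 mice with a LIGHT transgene (LIGHT Tg) were compared. LIGHT is a ligand of the tumour necrosis factor family, encoded by Tnfsf14. All 6 mice were given the high-fat diet TD88137 for 2 weeks, were 4 to 8 weeks old per the labels, and gave whole-liver RNA for 1 Affymetrix array each. The source labels give B6 for the WT mice and no strain for the LIGHT Tg mice, so genetic background cannot be told apart from the transgene, and no source used here names the promoter that drives the transgene. The arrays are called by their titles, WT78, WT30, WT31, Tg77, Tg34 and Tg35. The description of every sample speaks of wild-type mice, which for the LIGHT Tg arrays goes against their titles and source names. Nothing says outright that each array is a separate animal, so p-values measure only the spread between these samples.

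Complement is started in several ways. In the classical pathway C1q binds immune complexes and its proteases C1r and C1s cleave C4 and C2, while in the lectin pathway mannose-binding lectins, ficolins and collectins bind sugars and act through the MASP proteases. The alternative pathway uses factor B, factor D and properdin, and all routes meet at C3. The terminal pathway then begins with C5, which in mice is encoded by Hc, and C6, C7, C8 and several copies of C9 assemble into the membrane attack complex, a pore in the target membrane. C8 is made of an alpha, a beta and a gamma chain, encoded by C8a, C8b and C8g. The alpha and beta chains belong to the same pore-forming protein family as C6, C7 and C9, whereas the gamma chain is a lipocalin.

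Signals are MAS5 intensities on a linear scale, and each difference is the LIGHT Tg mean less the WT mean of the log2 signals, with limma's moderated standard error. Probe sets with a mean log2 signal of at least 7.387 (a signal of 167.4) were tested, and a gene is called past a threshold of 5% FDR by Benjamini-Hochberg adjustment over all 22519 tested probe sets. Each gene is represented by its brightest probe set unless another is named. Signals summed to between 30980000 and 32710000 per array. The arrays titled 77 and 78, 1 of each genotype, stood apart from those titled 30 to 35, 2 of each genotype: these title-number sets were separated by the leading principal component, which held 48.0% of the variance. Xist was at 406.6 and 444.0 on the former and at 7993 to 9714 on the latter at its brightest probe set, a male and a female pattern. Sex and any other difference between these sets cannot be told apart. Results are therefore given also with the title-number set as a block and within each set. Tnfsf14 had signals of 55.7, 19.3 and 26.7 in Tg77, Tg34 and Tg35 and of 7.7, 11.9 and 7.43 in WT78, WT30 and WT31 at its brighter probe set. The dimmer probe set went the other way, with 2.3, 3.1 and 5.6 in Tg77, Tg34 and Tg35 and 4.25, 3.75 and 7.83 in WT78, WT30 and WT31. Both were below the level tested, and no source used here says whether these probes match the transgene. Hepatocyte markers (Alb, Ttr, Apoa1 and others) summed to between 137800 and 154200 per array.

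The complement genes that passed were 2 components of the membrane attack complex. C8a was 6.66-fold and C9 5.67-fold lower in LIGHT Tg by the fit over 6 arrays, C8b had a difference of the same size that did not pass in that fit and passed with the title-number set as a block, and Hc, which starts the terminal pathway, overlapped between the genotypes. Of the 27 members with a tested probe set, 2 were lower, 0 were higher and 25 did not pass in limma. Over all 11563 genes with a tested probe set, 0.519% were called lower and 0.839% higher. At an unadjusted p below 0.05 there were 6 lower and 1 higher among the members. The share of all genes at that unadjusted level is not given here, so this count and later ones like it have no background. With the title-number set as a block 4 members were lower, namely C8a, C8b, C9 and C2, against 3.52% of all genes, and 0 were higher, against 3.63%. For the latter count 2 members had an unadjusted p below 0.05 with a higher signal. In the arrays titled 30 to 35 alone C8a, C8b and C9 were lower, 3 of 27 against 2.19% of all genes, and 0 were higher, against 2.46% (2 at an unadjusted p below 0.05). Differences smaller than 0.5 on the log2 scale were seen for 21 of the 27 members and for 84.3% of all genes tested.

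C8a, the alpha chain of C8, had signals of 15889, 10794 and 15167 in WT78, WT30 and WT31 and of 3724, 992 and 2387 in Tg77, Tg34 and Tg35. The highest LIGHT Tg value lay well below the lowest WT value, and Tg34 was the lowest array. C8a fell by 2.73 ± 0.448 on the log2 scale (SE, n = 3 per group; limma adjusted p = 0.0415, and 0.00675 with the block). Its difference ranked 28 of the 22519 tested probe sets, counted from the most negative. The fall was seen in both title-number sets, with -2.09 between Tg77 and WT78 and -3.06 ± 0.402 in the arrays titled 30 to 35 (adjusted p = 0.0153). The call was lost without WT78 (adjusted p = 0.0811), without WT30 (0.129), without WT31 (0.162) and without Tg35 (0.164), while the difference lay between -3.16 and -2.21 whichever array was left out.

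C9, which polymerises to form the pore, had signals of 18451, 12046 and 13802 in WT78, WT30 and WT31 against 3374, 1332 and 3753 in Tg77, Tg34 and Tg35. The genotypes did not overlap, and Tg34 was again the lowest. C9 fell by 2.50 ± 0.390 (SE, n = 3 per group; limma adjusted p = 0.0366, and 0.00785 with the block). The difference was nearly the same in both sets, with -2.45 between Tg77 and WT78 and -2.53 ± 0.442 in the arrays titled 30 to 35 (adjusted p = 0.0356). The call was lost without WT78 (adjusted p = 0.0697), WT30 (0.12), WT31 (0.136), Tg77 (0.057) or Tg35 (0.0915), and the difference lay between -2.78 and -2.03 over all 6 ways of leaving out 1 array.

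C8b, the beta chain of C8, had the most negative difference of the members, -2.75 ± 0.598 (6.71-fold), and ranked 26 of all tested probe sets. Its signals were 7787, 3720 and 5176 in WT78, WT30 and WT31 and 1651, 303 and 994 in Tg77, Tg34 and Tg35. The genotypes did not overlap, but each varied more than for C9: the SD of the log2 signals was 0.534 in WT and 1.26 in LIGHT Tg, against 0.314 and 0.822 for C9. C8b did not pass in the fit over 6 arrays (limma adjusted p = 0.101), and it fell with the block (adjusted p = 0.012) and in the arrays titled 30 to 35 (-3.00 ± 0.526, adjusted p = 0.0358). The difference between Tg77 and WT78 was -2.24. In each of C8a, C8b and C9, WT78 was the brightest WT array and Tg34 the dimmest LIGHT Tg array.

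The other measured terminal genes did not share a difference of this size. C8g, the gamma chain of C8, had signals of 15008, 12055 and 11972 in WT78, WT30 and WT31 and of 10798, 9679 and 10660 in Tg77, Tg34 and Tg35. All LIGHT Tg values lay below all WT values, by a small margin, and the difference of -0.32 ± 0.124 did not pass (limma adjusted p = 0.39, and 0.0617 with the block). Hc had 15568, 13804 and 15282 in WT78, WT30 and WT31 and 12839, 13350 and 15604 in Tg77, Tg34 and Tg35. The genotypes overlapped for this gene, and the difference was -0.10 ± 0.112 (adjusted p = 0.875). The signals of Hc and C8g, and the WT signals of C8a and C9, lie near the top of the scale. Without saturation flags, differences of these genes may be understated. C6, which joins C5b at the start of assembly, followed the title-number set more than the genotype. Its signals were 8025 in WT78 and 2887 in Tg77, against 993 and 1693 in WT30 and WT31 and 742 and 1881 in Tg34 and Tg35. C6 was 3.89-fold higher in the arrays titled 77 and 78 in the fit with both terms (1.96 ± 0.445 on the log2 scale, adjusted p = 0.0194). Its genotype difference was -0.58 ± 0.807 (adjusted p = 0.911), with -1.47 between Tg77 and WT78 and -0.13 in the other arrays. Whether the genotype difference of C6 differs between the sets did not pass as an interaction in limma (adjusted p = 0.601).

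**Figure D1:**
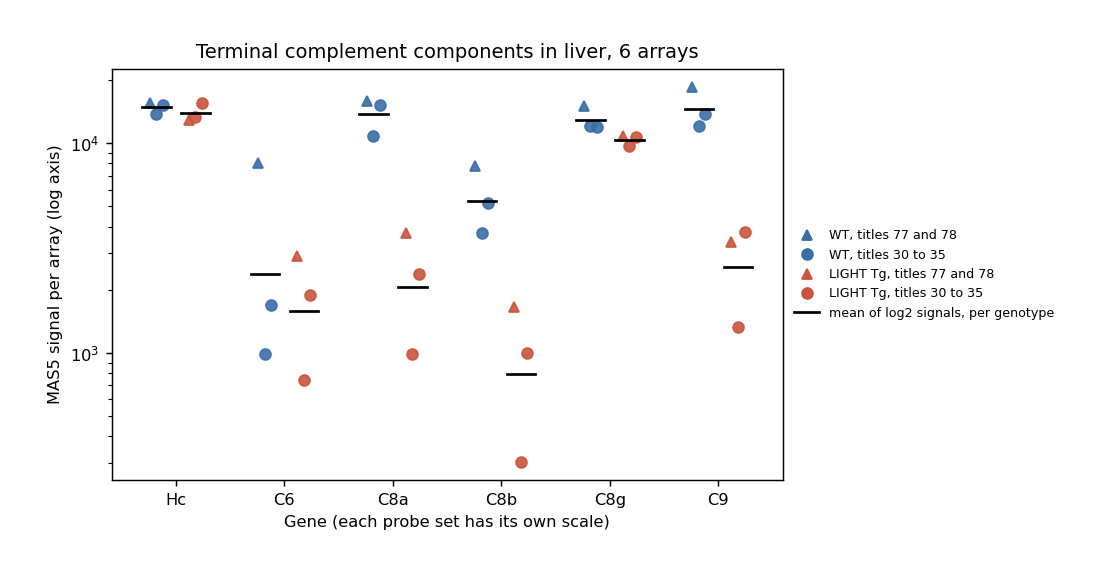
MAS5 signal on a log axis for the 6 measured terminal components, with 1 point per array, triangles for the arrays titled 77 and 78 and circles for those titled 30 to 35. Black lines are the means of the log2 signals of the 3 arrays per genotype. C8a, C8b and C9 have all LIGHT Tg points far below all WT points, Hc overlaps, and C6 is highest in WT78 and Tg77.

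The 3 genes with the large differences lie on separate chromosomes, except that C8a and C8b adjoin. In the RefSeq annotation of the assembly GRCm38.p6, C8a and C8b are neighbours on chromosome 4 and C9 is on chromosome 15, the chromosome of C6. Of the genes beside them, Prkaa2, a catalytic subunit of AMP-activated kinase that lies 2 protein-coding genes beyond C8a, fell by 1.03 ± 0.16 (limma adjusted p = 0.0363), and Plpp3 next to it had 0.48 ± 0.182 (adjusted p = 0.385, and 0.0385 with the block). On the other side of C8b, Dab1 had -0.52 ± 0.776 and Oma1 0.26 ± 0.161 (adjusted p = 0.92 and 0.671). On one side of C9, Dab2 had 0.18 ± 0.261 and Ttc33 -0.02 ± 0.173 (adjusted p = 0.916 and 0.993), and on the other Fyb had -0.21 ± 0.322 and Rictor 0.04 ± 0.191 (adjusted p = 0.921 and 0.986). These are the 2 nearest genes with a tested probe set on each side of the C8a and C8b pair and of C9.

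Because C8a, C8b and C9 moved together, their promoters are shown with that of Hc, a terminal gene whose signal overlapped between the genotypes. The sequences are from RefSeq (GRCm38.p6), 250 bases up to the base before the annotated start, written 5′ to 3′ on the strand of the gene. Of the 28 measured members, 22 had an entry. Capitals mark matches on either strand to any of 7 motifs: the HNF1 half-site GTTAAT, an HNF4 site CAAAGNNCA, the C/EBP palindrome TTGNNCAA, a forkhead (FOXA) site TGTTTNC, an NF-kappaB site GGNNTTTCC, a STAT site TTCNNNGAA and the TATA box TATAAA.
C8a, chr4:104876399-104876648, minus strand: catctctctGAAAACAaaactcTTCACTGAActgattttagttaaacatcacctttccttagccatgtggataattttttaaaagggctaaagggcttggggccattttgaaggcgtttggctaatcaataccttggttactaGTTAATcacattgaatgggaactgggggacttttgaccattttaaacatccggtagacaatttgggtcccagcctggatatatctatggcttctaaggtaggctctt
C8b, chr4:104766067-104766316, plus strand: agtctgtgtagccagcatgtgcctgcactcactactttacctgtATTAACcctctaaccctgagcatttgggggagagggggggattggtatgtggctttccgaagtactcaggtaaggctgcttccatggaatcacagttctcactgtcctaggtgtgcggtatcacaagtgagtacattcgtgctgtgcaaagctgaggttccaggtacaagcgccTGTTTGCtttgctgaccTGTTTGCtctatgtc
C9, chr15:6445096-6445345, plus strand: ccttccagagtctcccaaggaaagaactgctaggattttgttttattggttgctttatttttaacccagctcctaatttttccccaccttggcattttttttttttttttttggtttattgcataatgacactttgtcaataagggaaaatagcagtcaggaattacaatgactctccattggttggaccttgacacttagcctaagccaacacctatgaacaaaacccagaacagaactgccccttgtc
Hc, chr2:35061413-35061662, minus strand: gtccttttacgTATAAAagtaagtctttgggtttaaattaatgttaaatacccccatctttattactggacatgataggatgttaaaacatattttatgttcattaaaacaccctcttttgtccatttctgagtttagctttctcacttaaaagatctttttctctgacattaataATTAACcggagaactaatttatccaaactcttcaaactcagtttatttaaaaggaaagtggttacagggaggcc

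No motif was found in all of C8a, C8b and C9, and the C9 window held none of the 7. The letters of the HNF1 half-site were in the windows of C8a and C8b and also in that of Hc, and in 8 of the 26 promoter entries of all list members, against 6.43% of 32851 promoters. The forkhead letters were in C8a and C8b, in the latter 32 and 15 bases before the start. They were in 6 of the 26 entries of list members, that of C6 among them, where 17.8% of all promoters held them. The STAT letters were in C8a and in all in 4 of the 26 entries (7.02% of all promoters). The TATA box letters were in Hc and in all in 4 of the 26 (12.4%). The NF-kappaB letters were in none of these 4 windows (4.93% of all promoters), and among the members were in that of C3ar1. The HNF4 letters (5.49% of all promoters) and the C/EBP letters (5.65%) were in none of the 4 and overlapped each other in 1 of the 2 entries of C8g. A match says only that these letters are present.

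Among the 5 measured classical pathway members C2 had the most negative difference. At their brightest probe sets all 5 measured members had negative differences, with a median of -0.23, against -0.01 over all genes tested; with the mean of all tested probe sets of a gene the median was -0.13. C2 encodes the serine protease that forms the classical C3 convertase with C4b. Its brightest probe set had 5707, 3609 and 3937 in WT78, WT30 and WT31 and 3100, 2522 and 2699 in Tg77, Tg34 and Tg35. The genotypes did not overlap, with the WT78 signal the highest, and the difference was -0.65 ± 0.200. C2 did not pass in the fit over 6 arrays (limma adjusted p = 0.253) and fell with the block (adjusted p = 0.018), where 3.52% of all genes were lower. Its differences were -0.88 between Tg77 and WT78 and -0.53 ± 0.116 in the arrays titled 30 to 35 (adjusted p = 0.0659). The other probe sets of C2 had -0.60 ± 0.381 and -0.70 ± 0.272 (adjusted p = 0.68 and 0.394), so all 3 had differences of like size.

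The C1q chains and C1ra overlapped between the genotypes. C1qa, C1qb and C1qc, which together build C1q and in liver are made by macrophages, had differences of -0.05 ± 0.251, -0.30 ± 0.243 and -0.13 ± 0.239 (limma adjusted p = 0.988, 0.772 and 0.943). The 2 other probe sets of C1qb had positive differences, 0.15 ± 0.357 and 0.14 ± 0.243 (adjusted p = 0.962 and 0.939). At the brightest probe set of each chain Tg34 was the lowest array: C1qa was at 2153 there and at 3071 to 4047 elsewhere, C1qb at 1951 against 3331 to 3821, and C1qc at 2577 against 3337 to 4752. At the second brightest probe set of C1qb WT30 was the lowest, at 1488 against 1533 on Tg34, and at the third Tg34 was the lowest, at 1227. The summed signal of 9 Kupffer cell and macrophage markers was 22270 on Tg34 and between 31390 and 36190 on the other 5 arrays, and 0 of the 9 passed in limma (0 at an unadjusted p below 0.05). The part of macrophage content in the C1q values was not tested. In whole liver, fewer cells of a type and less RNA per cell cannot be told apart. C1ra, a C1r protease, had signals from 5320 to 8266 in WT and from 4590 to 6485 in LIGHT Tg, and a difference of -0.23 ± 0.214 (adjusted p = 0.831).

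No lectin pathway gene passed. The 6 members had a median difference of 0.03, with 3 negative and 3 positive. Mbl2, the mannose-binding lectin C of liver, had signals of 11034, 13582 and 15289 in WT78, WT30 and WT31 and of 16478, 16924 and 17229 in Tg77, Tg34 and Tg35. All LIGHT Tg values were higher and closer together than the WT values. They lie near the top of the scale, where, without saturation flags, both a difference and a spread may be understated. The difference of 0.36 ± 0.132 did not pass (limma adjusted p = 0.367, and 0.0639 with the block). Mbl1, mannose-binding lectin A, had -0.14 ± 0.189 (adjusted p = 0.908). The proteases Masp1 and Masp2 had 0.10 ± 0.184 and -0.05 ± 0.148 (adjusted p = 0.944 and 0.974). At the second probe set of Masp2 the difference was -0.50 ± 0.276 (adjusted p = 0.614), where Tg77 alone was low, at 913 against 1627 to 2166 on the other arrays. The ficolin Fcna had -0.11 ± 0.150 and the collectin Colec11 0.13 ± 0.217 (adjusted p = 0.901 and 0.931).

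**Figure D2:**
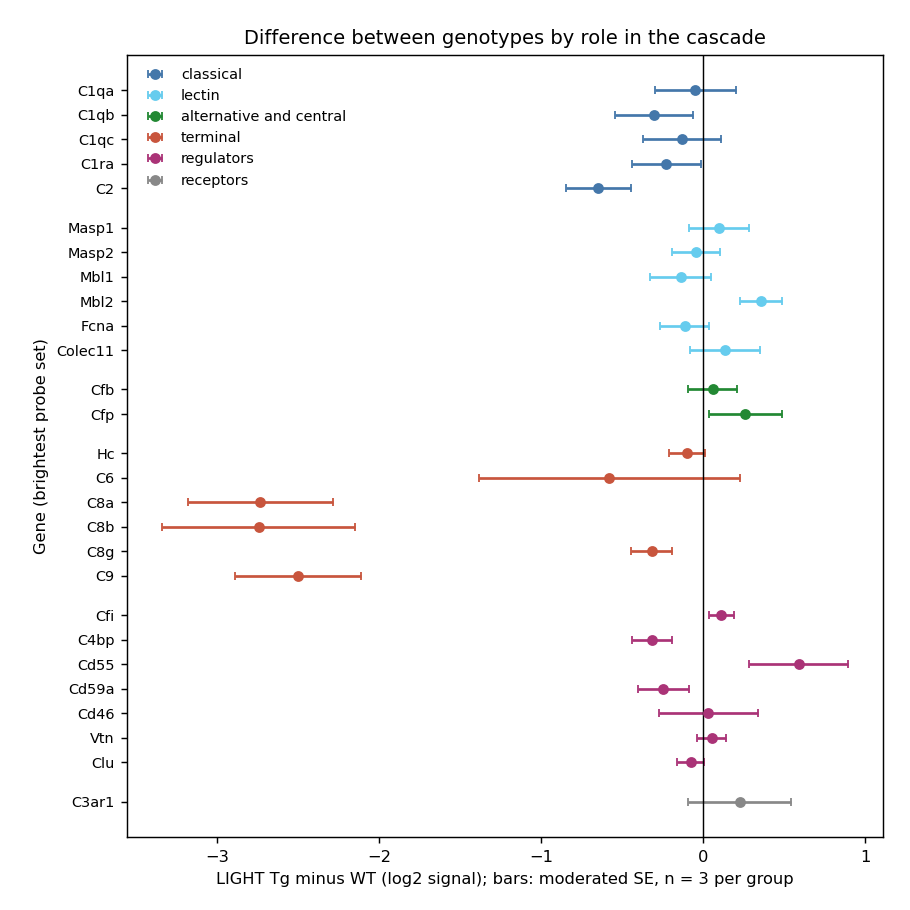
Difference between the genotypes (LIGHT Tg minus WT, log2 signal) at the brightest probe set of each of the 27 tested members, coloured by role, with bars for the moderated SE (n = 3 arrays per group). C8a, C8b and C9 lie between -2.75 and -2.50 and every other member lies between -0.65 and 0.59.

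In the alternative pathway, Cfb and Cfp were measured. Cfb, factor B, the protease of the alternative C3 convertase, had signals of 11824, 8932 and 8413 in WT78, WT30 and WT31 and of 10483, 9219 and 10358 in Tg77, Tg34 and Tg35. The genotypes overlapped, with a difference of 0.06 ± 0.151 (limma adjusted p = 0.967). Properdin, Cfp, which stabilises that convertase, had signals from 1226 to 1711 in WT and from 1343 to 2159 in LIGHT Tg, and a difference of 0.26 ± 0.225 (adjusted p = 0.807). A dimmer probe set of Cfp was at 48.1 on Tg77 and at 206 to 359 on the other arrays, and its difference was -0.64 ± 0.748 (adjusted p = 0.881).

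None of the 7 regulators passed. Their median difference was 0.03, with 3 negative and 4 positive of 7. C4bp, which binds C4b and dissociates the classical convertase, had 13090, 12164 and 13903 in WT78, WT30 and WT31 and 11472, 9089 and 10945 in Tg77, Tg34 and Tg35. All LIGHT Tg values lay below all WT values, and the difference of -0.32 ± 0.123 did not pass (limma adjusted p = 0.388, and 0.114 with the block). Factor I, Cfi, which degrades C3b and C4b, had 16675, 16624 and 16297 in WT78, WT30 and WT31 and 17729, 17987 and 17894 in Tg77, Tg34 and Tg35. The LIGHT Tg values were all higher, and the difference was only 0.11 ± 0.0801 (adjusted p = 0.733, and 0.281 with the block).

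The fluid-phase inhibitors of pore assembly, Vtn (vitronectin) and Clu (clusterin), had differences of 0.05 ± 0.0893 and -0.08 ± 0.0855 (limma adjusted p = 0.938 and 0.866). Vtn signals lay between 17117 and 18936 and Clu signals between 17254 and 19743. These levels, and that of Cfi, are above those of 99.8% of all probe sets, and without saturation flags a difference at the top of the scale may be understated. Of the 4 Clu probe sets 2 did not overlap between the genotypes, with -0.19 ± 0.0977 and -0.12 ± 0.0879, and neither passed (adjusted p = 0.56 and 0.76).

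The membrane-bound regulators were measured at lower signals. Cd55, which speeds decay of the convertases, had 3 probe sets with differences of 0.59 ± 0.307, 0.64 ± 0.410 and 1.14 ± 0.733. None passed (limma adjusted p = 0.579, 0.686 and 0.689), and signals lay between 42.6 and 515, close to the level tested. Cd59a, which blocks the insertion of C9, had -0.25 ± 0.159 at its brightest probe set and 0.25 ± 0.176 at the other (adjusted p = 0.689 and 0.722), so its probe sets differed in sign. Cd46 had signals from 241 to 501 in WT and from 285 to 404 in LIGHT Tg, with a difference of 0.03 ± 0.307 (adjusted p = 0.993).

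Of the anaphylatoxin receptors, which myeloid cells carry, C3ar1 had a difference of 0.22 ± 0.317 (limma adjusted p = 0.914). It was at 684 on Tg77 and at 293 to 463 on the other arrays, and its difference was 0.99 between Tg77 and WT78 and -0.16 in the other set. The other tested probe set of C3ar1 had -0.04 ± 0.248 (adjusted p = 0.988), with 486 on Tg77 and 318 to 468 on the other arrays. A dimmer probe set, below the level tested, had 0.27 ± 0.464. Both probe sets of C5ar1 lay below the level tested. The brighter was at 156 and 167 in WT30 and WT31 and between 43.7 and 66.8 on the other 4 arrays, a difference of -0.95 ± 0.600 in the fit without the filter (adjusted p = 0.835).

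**Figure D3:**
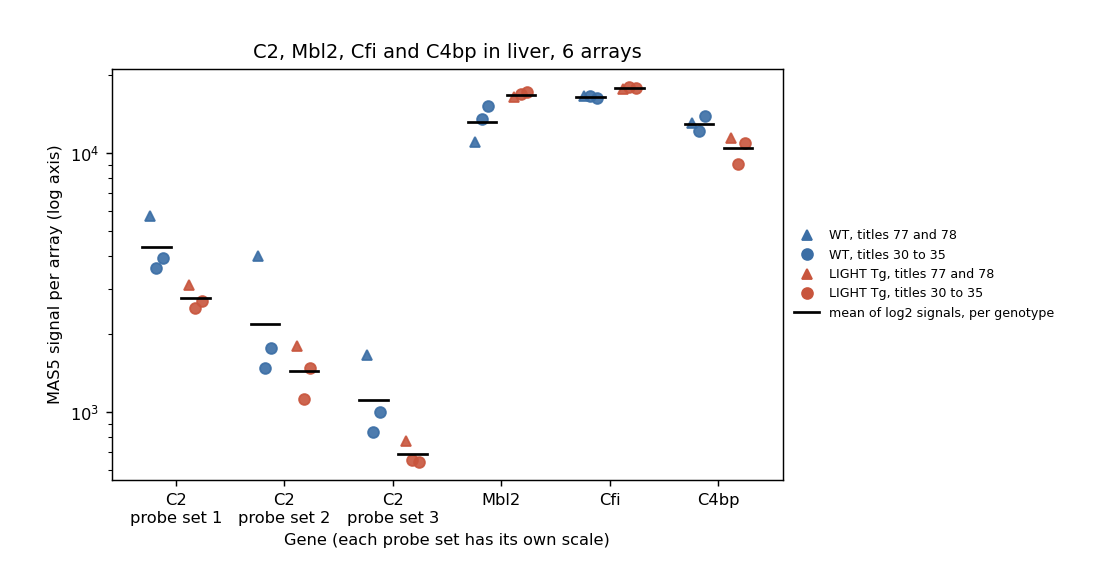
MAS5 signal on a log axis for the 3 probe sets of C2 (from brightest to dimmest) and for Mbl2, Cfi and C4bp, with 1 point per array and black lines at the means of the log2 signals of the 3 arrays per genotype. The genotypes are apart for each gene shown at its brightest probe set, by less than 2-fold, and the second C2 probe set overlaps.

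In all, 6 of the 27 members had all LIGHT Tg values below all WT values, against 9.62% of all genes tested, and 2 had all values above, against 9.09%. The 6 are C2, C8a, C8b, C8g, C9 and C4bp, and the 2 are Mbl2 and Cfi. With 3 arrays per group, the smallest p of an exact permutation test is 0.1. The 6 terminal members had a median of -1.54, which was -1.78 between Tg77 and WT78 and -1.39 in the arrays titled 30 to 35, and their range was from -2.75 to -0.10. No terminal gene lay near that median. C8a, C8b and C9 lay between -2.75 and -2.50, and C6, C8g and Hc between -0.58 and -0.10. For all 27 members the median was -0.10, and for the 24 without C8a, C8b and C9, left out after their values were seen, it was -0.06. Of those 24, C2 alone passed with the block, where 3.52% of all genes were lower and 3.63% higher. Without the block 0 of them passed, where 0.519% of all genes were lower and 0.839% higher.

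**Figure D4:**
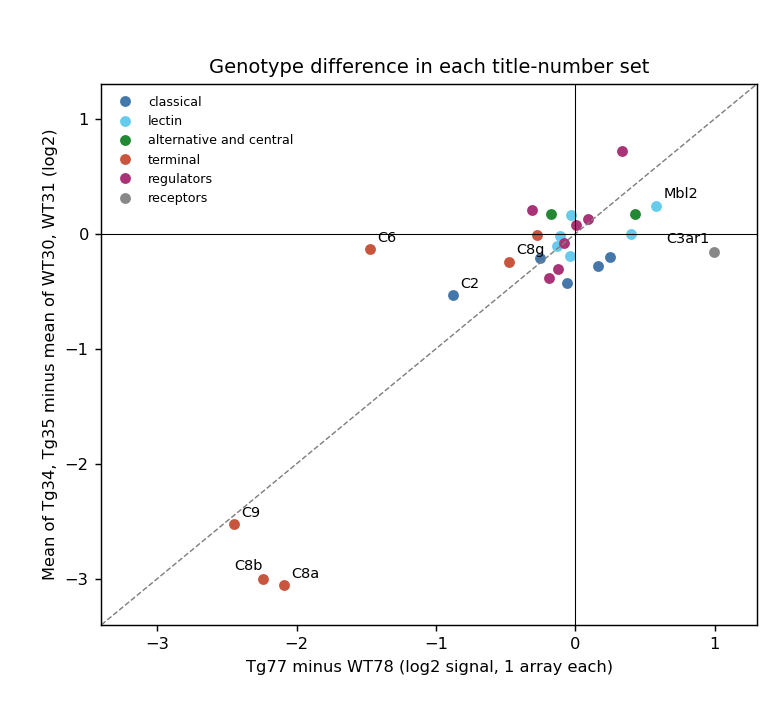
Difference between Tg77 and WT78 (horizontal, log2 signal, 1 array each) against that between the means of Tg34 and Tg35 and of WT30 and WT31 (vertical) for the 27 tested members, coloured by role, with the dashed line where both are equal. C8a, C8b and C9 lie between -2.45 and -2.09 on the horizontal axis and between -3.06 and -2.53 on the vertical, while C6 is at -1.47 and -0.13.

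Between the title-number sets, some members differed, and here the set cannot be told apart from sex. In the fit with both terms, C6, C2 and Masp1 were higher on the arrays titled 77 and 78 and Mbl1 and Colec11 were lower at their brightest probe sets. That is 5 of the 27 members, where 25.0% of all genes tested differed between the sets. Masp1 had 0.38 ± 0.109 (limma adjusted p = 0.0392), but its probe sets differed in sign, with -0.55 ± 0.151 at the second brightest and 0.56 ± 0.124 at the third (adjusted p = 0.0347 and 0.0181). C2 had 0.42 ± 0.117 (adjusted p = 0.0358). Mbl1 had -0.42 ± 0.105 and Colec11 -0.49 ± 0.120 (adjusted p = 0.0266 and 0.0254). C8a, C8b and C9 had 0.79 ± 0.367, 1.21 ± 0.442 and 0.56 ± 0.353, and none passed (adjusted p = 0.145, 0.0803 and 0.27). No member passed as an interaction of genotype and set (limma adjusted p between 0.417 and 0.987; 1 at an unadjusted p below 0.05), against 0.0605% of all genes tested.

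Other genes of the pathway were also looked at, from a list of 32 of which 23 had a probe set and 19 were tested. None passed in the fit over 6 arrays in limma, where 2 lower and 1 higher had an unadjusted p below 0.05, and 1 fell with the block, against 3.52% of all genes. That gene was C1s1, which encodes the C1s protease of the classical pathway. Its signals were 7264, 9915 and 9254 in WT78, WT30 and WT31 and 3618, 5076 and 5237 in Tg77, Tg34 and Tg35. The genotypes did not overlap, and the difference was -0.93 ± 0.190 (adjusted p = 0.0857, and 0.0017 with the block), with -1.01 between Tg77 and WT78 and -0.89 in the other arrays. The median of the 19 was -0.01. The C1 inhibitor Serping1 had a difference of -0.09 ± 0.105 (adjusted p = 0.868).

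Other hepatocyte products were looked at beside C8a and C9. Of 9 hepatocyte markers 0 passed in limma (0 at an unadjusted p below 0.05), with a median of -0.03 and a range from -1.01 to 0.08. Of 14 coagulation proteins made by hepatocytes 2 rose and 0 fell, against 0.839% and 0.519% of all genes, with a median of 0.00 and a range from -0.19 to 1.11. Alb, Ttr, Apoa1, Apob, Serpina1c, Cps1, F2, Fga, Fgb, Fgg, Plg and Serpinc1 had signals above those of 99.8% of all probe sets. Without saturation flags, differences of these genes may be understated. F7 rose by 1.03 ± 0.101 and F10 by 0.72 ± 0.106 (adjusted p = 0.00755 and 0.0306). With the block 4 rose, against 3.63% of all genes. The added genes were F11, with 1.11 ± 0.199, and F5, with 0.35 ± 0.0659 (SE and adjusted p = 0.0213 and 0.0267 with the block; adjusted p = 0.19 and 0.67 without it). Of 14 liver transcription factors and signalling genes, Nr1h4, the bile acid receptor, fell by 1.28 ± 0.206 (adjusted p = 0.0393), where 0.519% of all genes were lower. With the block 3 fell, against 3.52% of all genes: Nr1h4, Bcl6 with -1.61 ± 0.192 and Cebpb with -0.50 ± 0.110 (SE and adjusted p = 0.00543 and 0.0447 with the block; adjusted p = 0.0965 and 0.354 without it). The genotypes overlapped for F5 and Cebpb, but not for F7, F10, F11, Nr1h4 or Bcl6. Hnf4a had 0.00 ± 0.107.

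Of 5 endothelial markers, Lyve1 rose (1.24 ± 0.200, limma adjusted p = 0.0393), against 0.839% of all genes. Lyve1 and Stab2 rose with the block, against 3.63% of all genes, with Stab2 at 0.75 ± 0.176 (adjusted p = 0.125, and 0.0127 with the block). Clec4g had 0.36 ± 0.175, Pecam1 0.19 ± 0.213 and Cdh5 0.12 ± 0.234, and these did not pass in either fit (adjusted p = 0.529, 0.873 and 0.944 without the block); the genotypes overlapped for Pecam1 and Cdh5. The summed signal of the 5 markers was between 5655 and 6574 in WT and between 8460 and 10700 in LIGHT Tg, while the summed hepatocyte marker signal was between 145100 and 154200 in WT and between 137800 and 153300 in LIGHT Tg. The part of endothelial content in the complement differences was not tested. Of the neutrophil, adipocyte, stellate cell, B cell, T cell and bile duct markers with a tested probe set, none passed in either fit, and the 3 mesothelial markers lay below the level tested.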

How the data were processed

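Per the labels, biotin-labelled cRNA from whole-liver RNA was hybridised to 1 array per sample. The deposited values are intensities from MAS5, which is named in the submitters' processing notes; no source used here gives its version, its scaling target or detection calls. Signals below 1 (106 values) were set to 1 before log2, and 64 control probe sets were left out. Probe sets at or above the median mean log2 signal were tested with limma 3.58.1 (R 4.3.3; lmFit, eBayes with a variance trend, two-sided) without further normalization, genotype alone as the term. Samples were grouped by title. The title number pairs no samples; the title-number set was tried as a block. Genes were named from the annotation of the array, where RefSeq (GRCm38.p6) changed 0 symbols; 3 probe sets shared by a member and another gene were not used. Values on every array are given for members past the threshold with or without the block or with groups that do not overlap, and others by range; C6, Hc and Cfb, picked outside that rule after their values were seen, are given in full too. Members and lists were chosen with earlier results of these data known. Of other pathway genes and comparison lists, those past the threshold are named; Serping1, Hnf4a and the genes beside C8a, C8b and C9 were added after seeing the data. The steps were tested on simulated data. Python 3.11.15 and matplotlib 3.10.9 drew the figures. The number of arrays limits the precision.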

Additional observations from a re-analysis of the deposited data

How the results depend on the processing

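All 17 alternatives were run, and C8a, C8b and C9 stayed lower in LIGHT Tg in each of them. The count of complement genes lower at 5% FDR was 2, and it was 0 with no filter on low signals, 1 with quantile normalization (C9), 0 with eBayes without the trend, 5 with array weights (C2, C8a, C8b, C9 and C4bp) and 4 with the title-number set block; leaving out 1 array gave 0 to 2. The count of higher genes was 0 throughout. For C8a the adjusted p in limma was 0.0578 with no filter, 0.0525 with quantile normalization and 0.0759 without the trend, and for C9 it was 0.0518 with no filter and 0.0682 without the trend. The fit with no filter has both more probe sets to adjust over and its own variance trend; the cause of these changes was not tested. Over all probe sets 264 passed, with 148 without the trend, 1992 with array weights, 1457 with the block, 956 in the arrays titled 30 to 35 alone and 43 to 306 with 1 array left out. The median of the terminal components was between -1.93 and -1.15 with 1 array left out, that of the classical between -0.37 and -0.02, the lectin between -0.0528 (without WT30) and 0.0385, the regulators between -0.10 and 0.03, the alternative between 0.06 and 0.27 and the receptors between -0.07 and 0.54. With the mean of all probe sets of a gene the alternative median was -0.0671, and with no filter the receptor median was -0.36. The median log2 signal of each role group was also taken on each array. Its SD between arrays of 1 genotype, pooled over the genotypes, was lowest for the lectin (0.0785) and highest for the terminal components (0.637). The difference of C6 changed sign without WT78, to 0.30, and did not pass in any setting. No paired analysis was possible because the genotypes share no replicate number. Signals near the top of the scale limit Cfi, Vtn, Clu, Mbl2, Hc, C8g, C4bp and the WT values of C8a and C9. They also limit most hepatocyte markers and several coagulation genes. Signals near the bottom limit C5ar1 and Cd55.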
